A study of Mus musculus with 2 samples.

Results

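The genes described here are the 6 that carry potassium secretion in the stria vascularis (SV): Kcne1, Kcnq1, Kcnj10, Slc12a2, Atp1b1 and Atp1b2. They were taken from a list, matched by Ensembl identifier, and all 6 were among the 27040 identifiers listed in both deposited matrices. Each was followed in 4 classes of cell barcodes, namely intermediate, marginal, endothelial and mural, with no limit on the mitochondrial share.

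The SV is the layered epithelium of the cochlear lateral wall that fills the endolymph with potassium and holds it at a positive potential. Intermediate cells, which are melanocytes of the inner ear, pass potassium through the inward rectifier KCNJ10 into the narrow intrastrial space. Marginal cells take it up across their basolateral membrane by the sodium pump and the cotransporter SLC12A2, and release it into the endolymph through the apical channel formed by KCNQ1 and its accessory subunit KCNE1. The sodium pump needs a beta subunit to reach the membrane, and Atp1b1 and Atp1b2 encode 2 of the beta subunits.

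The SV of mice aged 1 to 3 months, of both sexes, was dissociated and captured on the 10x Chromium 3′ platform, with 20 cochleae of 10 mice pooled into 1 library for each of 2 reporter lines. Tie2-GFP mice carry GFP under the promoter of Tek, an endothelial receptor gene, and NG2-DsRed mice carry DsRed under that of Cspg4, a gene of pericytes and other cells. Neither line had a treatment. The design text of the series describes both batches as sorted by fluorescence, for endothelial cells in the Tie2-GFP line and for pericytes in the NG2-DsRed line, while the methods of the study mention sorting for cases where enrichment was required. The part of the sort in the number of barcodes per class was not tested. The authors deposited raw counts of unique molecular identifiers (UMIs), 5432289 in 633 barcodes of the Tie2-GFP library and 1232599 in 201 barcodes of the NG2-DsRed library, and the libraries shared 0 barcodes.

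A barcode was intermediate with a UMI of both Dct and Tyr, 2 genes of melanin synthesis. It was marginal with at least 2 summed UMIs of Kcne1 and Kcnq1 and no Tyr UMI, endothelial with at least 4 of 6 endothelial genes (Pecam1, Cdh5, Cldn5, Flt1, Egfl7 and Ramp2), and mural with at least 3 of 4 mural genes (Pdgfrb, Rgs5, Vtn and Notch3) and at most 1 endothelial gene. In the Tie2-GFP library 88 barcodes were intermediate, 47 marginal, 379 endothelial and 4 mural, and 8 of the 47 marginal ones were endothelial as well. Of the NG2-DsRed barcodes 26 were intermediate, 60 endothelial and 97 mural, and 2 of the intermediate ones were also endothelial. Only 2 barcodes there met the marginal rule. Both were also endothelial and held 0 UMIs of 9 further marginal markers, so the data went against that label and no marginal level is drawn from the NG2-DsRed library. At the marginal threshold of the Tie2-GFP library, 62 barcodes without a Tyr UMI lay just outside with 1 summed UMI, 12 just inside with 2, and 25 held 5 or more. Most of the 62 were endothelial. The 371 endothelial barcodes that were not also marginal held 3 Kcne1 and 46 Kcnq1 UMIs, at most 1 in each barcode.

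The remaining classes were checked against markers that the rule did not use. Intermediate barcodes of the Tie2-GFP library held UMIs of 8 of 10 intermediate markers, and 7 (Mlana, Mitf, Met, Cd44, Slc45a2, Gpnmb and Sox10) were found in at least 25% of barcodes. Tyrp1 and Kit, which many melanocytes use, had 0 UMIs in the intermediate barcodes of both libraries, and Pmel had 1 in those of the Tie2-GFP library. The marginal barcodes of the Tie2-GFP library held UMIs of all 9 marginal markers, with Esrrb, a nuclear receptor gene of marginal cells, at 349 CPM against 0 UMIs in the endothelial barcodes. CPM is the number of UMIs of a gene per 1000000 UMIs summed over the barcodes of a class. Summed endothelial markers came to 1064 CPM in the marginal barcodes against 4287 in the endothelial ones, and to 10.6 CPM in the intermediate barcodes. Over single marginal barcodes the median of these markers was 0 CPM, and 8 of the 47 met the endothelial rule as well. All 7 further endothelial markers were found in at least 25% of the endothelial barcodes of both libraries, and 7 of 8 mural markers in at least 25% of the mural barcodes of the NG2-DsRed library. The summed mural markers came to 169 CPM in endothelial barcodes of the Tie2-GFP library, but to 1368 CPM in those of the NG2-DsRed library against 9993 CPM in its mural ones. In turn, the summed endothelial markers came to 641 CPM in these mural barcodes against 3348 CPM in the endothelial ones of that library. Median depth was 15687 UMIs in intermediate, 9647 in marginal and 7431 in endothelial barcodes of the Tie2-GFP library, and 10153.5 in intermediate, 9146 in endothelial and 3027 in mural barcodes of the NG2-DsRed library. The median mitochondrial share was 9.32% in intermediate and 19.7% in marginal barcodes of the Tie2-GFP library against 1.82% in endothelial ones, and 80 of the 88 intermediate and 38 of the 47 marginal barcodes lay above the 5% that the study allowed. Each line was 1 library, so no test between classes or lines was run, and all 95% intervals reflect counting error alone. They are exact intervals, of the Poisson kind for a CPM value, the Clopper-Pearson kind for a share and the conditional binomial kind for a ratio. Where 2 classes are set in ratio, barcodes that met the endothelial rule as well were counted as endothelial alone, which left 39 marginal barcodes in the Tie2-GFP library and 24 intermediate ones in the NG2-DsRed library.

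The 6 members fell into 2 sets by the class in which they were highest. Kcne1, Kcnq1, Slc12a2 and Atp1b2 were highest in marginal barcodes of the Tie2-GFP library, whereas Kcnj10 and Atp1b1 were highest in intermediate barcodes of both libraries. Slc12a2 was high in both strial classes of that library, at 5500 and 3310 CPM. In its endothelial barcodes the 6 members ranged from 0.874 to 36.4 CPM. For Kcne1 and Kcnq1 the order follows in part from the rule, which chose marginal barcodes by these genes.

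**Figure D1:**
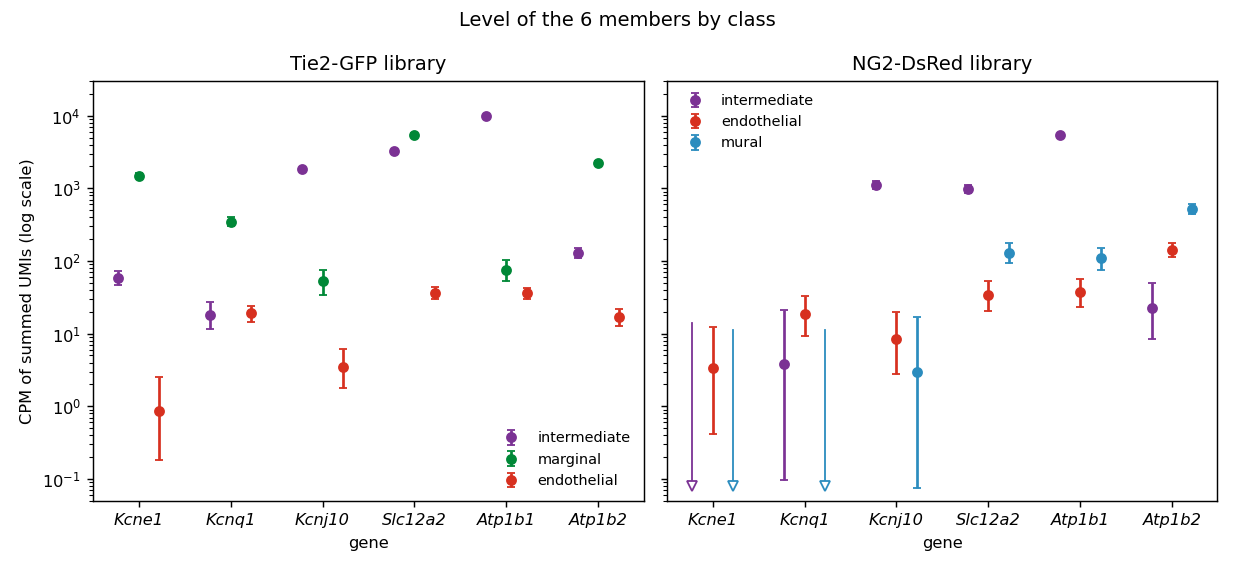
Level of each member in CPM (log axis) in the Tie2-GFP library (left) and the NG2-DsRed library (right), with points for the level of a class, bars for the 95% Poisson interval, and open triangles at the foot of the axis for 0 UMIs with a line up to the upper bound. Classes of under 10 barcodes are left out. Kcnj10 and Atp1b1 stand highest in intermediate barcodes of both libraries, at 1838 and 9897 CPM on the left and 1114 and 5377 CPM on the right.

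Kcne1, the accessory subunit of the apical channel, lies at chr16:92345982-92359468 on the minus strand (GRCm38, GENCODE M21), where no other gene overlaps it. Its level in the marginal barcodes that chose it was 1496 CPM (1392 to 1605), from 772 UMIs in 38 of 47 barcodes, with a median of 4 and a maximum of 89 UMIs per barcode. None of these UMIs came from the 8 barcodes that were also endothelial, and without those the level was 1991 CPM (1853 to 2136), with 38 of 39 barcodes holding a UMI. The intermediate barcodes of the Tie2-GFP library were at 58.5 CPM (46.2 to 73.1), the endothelial ones at 0.874 CPM (0.180 to 2.55), and 1 UMI fell in the 4 mural ones. In the NG2-DsRed library 0 of 26 intermediate and 0 of 97 mural barcodes held a Kcne1 UMI, which allows levels of up to 11.3 and 9.03 CPM, and the endothelial barcodes held 2 UMIs.

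The Kcne1 UMIs in intermediate barcodes were not spread evenly. Of 77, 75 lay in the 6 barcodes that held at least 2 UMIs of Kcne1 and Kcnq1 together, a split chosen after seeing the values. Those 6 were at 1211 CPM (952 to 1518) for Kcne1, 5230 CPM for Slc12a2 and 2437 CPM for Atp1b2, which are levels of the same order as in the marginal class, and at 565 CPM for Kcnj10 and 936 CPM for Atp1b1, which lay between the intermediate and the marginal levels. Single barcodes weighed heavily in these summed levels. 1 barcode held 116 of the 151 Atp1b2 UMIs, and another held 22 of the 35 Kcnj10 UMIs. The median over the 6 barcodes was 1104 CPM for Atp1b2 and 362 CPM for Kcnj10. The low Kcne1 and Kcnq1 counts of the other 82 follow from the split itself. The number of barcodes set aside by doublet score was fixed by library size, at 3 here, and these included 0 intermediate ones. So few barcodes could not cover the 6, and the part of joined cells or carried-over RNA in these values was not tested.

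Kcnq1, the pore subunit, lies at chr7:143106362-143427042 on the plus strand. Its locus also holds the long antisense gene Kcnq1ot1 on the opposite strand, and how the authors' counting handled intronic reads is not stated in the sources used here. In the marginal barcodes that chose it, Kcnq1 was at 349 CPM (300 to 404), from 180 UMIs in 35 of 47 barcodes. The 39 marginal barcodes that were not also endothelial were at 415 CPM (353.5 to 484.5), from 161 UMIs in 27 barcodes. The intermediate barcodes of the Tie2-GFP library were at 18.2 CPM (11.7 to 27.1), from 24 UMIs of which 22 lay in the 6 barcodes described above, and 3 of these 6 held a Kcnq1 UMI. The endothelial barcodes were at 18.9 CPM (14.6 to 24.1) in the Tie2-GFP library and at 18.6 CPM (9.31 to 33.4) in the NG2-DsRed library. Without barcodes that met a second rule these levels were 13.9 and 9.23 CPM, and 5 of the 11 UMIs of the NG2-DsRed library lay in the 2 barcodes that met the marginal rule. That rule chose barcodes by these UMIs, so leaving those barcodes out was bound to lower the levels. The 97 mural barcodes of the NG2-DsRed library held 0 Kcnq1 UMIs, which allows a level of up to 9.03 CPM.

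Kcne1 and Kcnq1 stood in different proportions in different classes. Kcne1 gave 81.1% (78.5 to 83.5) of the summed UMIs of both genes in marginal barcodes, where the rule counted them together, and 76.2% (66.7 to 84.1) in intermediate barcodes. The intermediate share rests on the 6 barcodes named above, which were picked by these UMIs and held 75 of 77 Kcne1 and 22 of 24 Kcnq1 UMIs. The other 82 held 2 UMIs of each gene, too few for a share. In the endothelial barcodes of the Tie2-GFP library Kcne1 gave 4.41% (0.919 to 12.4), from 3 Kcne1 and 65 Kcnq1 UMIs. In the 371 endothelial barcodes that were not also marginal the share was 6.12% (1.28 to 16.9), from 3 and 46 UMIs, so the proportion did not rest on the barcodes that met both rules. The endothelial barcodes of the NG2-DsRed library held 2 Kcne1 and 11 Kcnq1 UMIs, a share of 15.4% (1.92 to 45.5). Kcnq1ot1 was at 172 CPM (159 to 187) in endothelial barcodes of the Tie2-GFP library, at 192 CPM (169 to 217) in intermediate, and at 155 CPM (123 to 193) in marginal ones. It was at 208 CPM (161 to 263) in the mural barcodes of the NG2-DsRed library, where Kcnq1 itself had 0 UMIs.

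Slc12a2 encodes the sodium-potassium-chloride cotransporter NKCC1, which loads potassium into marginal cells from the intrastrial space. It was at 5500 CPM (5299 to 5706) in the 47 marginal barcodes, with UMIs in 41, and at 7300 CPM (7034 to 7574) in the 39 that were not also endothelial. Intermediate barcodes of the same library were at 3310 CPM (3212 to 3410), with UMIs in 87 of 88. The ratio of marginal to intermediate barcodes was 2.21 (2.10 to 2.31), a smaller contrast than for any other member. Endothelial barcodes were at 36.4 CPM (30.3 to 43.4) in the Tie2-GFP library and at 33.9 CPM (20.7 to 52.3) in the NG2-DsRed library. In the latter, intermediate barcodes were at 989 CPM (873 to 1117) and mural barcodes at 129 CPM (93.6 to 174). Mural barcodes thus stood 3.82-fold (2.198 to 6.85) above endothelial ones and intermediate barcodes 8.18-fold (5.91 to 11.6) above mural ones.

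Kcnj10 encodes the inward rectifier of intermediate cells and lies at chr1:172341210-172374085 on the plus strand. It was at 1838 CPM (1766 to 1913) in intermediate barcodes of the Tie2-GFP library, with a UMI in 87 of 88, a median of 24.5 UMIs and a maximum of 116. It was at 1114 CPM (990 to 1249) in the NG2-DsRed library, with a UMI in 25 of 26. The marginal barcodes were at 52.3 CPM (34.5 to 76.1), from 27 UMIs in 8 of 47, and all 8 also held Kcne1 and Dct UMIs. Of the 27 UMIs, 13 lay in 1 barcode that stood just inside the marginal threshold, with 2 Kcne1 and 0 Kcnq1 UMIs. The level was 26.2 CPM with a threshold of 5 summed UMIs. Since all 8 held Dct, no Kcnj10 UMI could be left in marginal barcodes without a Dct UMI. None was left within the study's limits either, but only 9 marginal barcodes remained there, of which 1 was not also endothelial. Endothelial barcodes were at 3.49 CPM (1.81 to 6.10) in the Tie2-GFP library and at 8.47 CPM (2.75 to 19.8) in the NG2-DsRed library, and 1 UMI was found in 97 mural barcodes. Intermediate barcodes were 526-fold (301 to 1019) above endothelial ones in the Tie2-GFP library and 141-fold (59.7 to 437) above them in the NG2-DsRed library.

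Atp1b1, a beta subunit of the sodium pump, lies at chr1:164437109-164458355 on the minus strand and overlaps Nme7 on the opposite strand. It had the most UMIs of the 6 members in intermediate barcodes, at 9897 CPM (9728 to 10068.7) in the Tie2-GFP library and 5377 CPM (5101 to 5664) in the NG2-DsRed library, which can be set side by side with the other genes because the 3′ assay counts 1 tag per transcript. Its median per intermediate barcode was 137 UMIs in the former and 62.5 in the latter. Marginal barcodes were at 75.6 CPM (53.7 to 103), and intermediate barcodes were 116-fold above the marginal ones. The endothelial level was 35.8 CPM (29.8 to 42.7) in the Tie2-GFP library and 37.3 CPM (23.4 to 56.4) in the NG2-DsRed library, where mural barcodes were at 108 CPM (75.9 to 150). Across single barcodes, Spearman's rho between the CPM of Kcnj10 and Atp1b1 was 0.464 over 88 intermediate barcodes of the Tie2-GFP library and 0.748 over the 26 of the NG2-DsRed library. These barcodes share a library, and their rho with the mitochondrial share was not alike in both. With that share Kcnj10 had a rho of 0.530 and Atp1b1 of 0.372 in the NG2-DsRed library, and -0.08 and -0.49 in the Tie2-GFP library, where Atp1b1 also had a rho of 0.382 with depth.

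Of the 6 members, promoter sequences were at hand only for Kcnj10 and Atp1b1, which are shown. These 2 members had their highest level in the same class as Dct and Tyr, the pigment genes that chose that class. The promoters of Dct and Tyr are given for comparison. The sequences are the 250 bases before the annotated start in RefSeq (GRCm38.p6), read 5′ to 3′ on the strand of the gene, with matches on either strand to CATGTG, a form of the E-box that the melanocyte factor MITF binds, in capitals. The entries lie at chr1:172340960-172341209 (Kcnj10, plus strand), chr1:164458356-164458605 (Atp1b1, minus), chr14:118052247-118052496 (Dct, minus) and chr7:87493513-87493762 (Tyr, minus).
Kcnj10: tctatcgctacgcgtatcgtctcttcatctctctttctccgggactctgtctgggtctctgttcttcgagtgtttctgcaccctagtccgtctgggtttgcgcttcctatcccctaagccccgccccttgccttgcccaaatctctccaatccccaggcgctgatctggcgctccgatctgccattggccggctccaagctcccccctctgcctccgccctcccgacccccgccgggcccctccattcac
Atp1b1: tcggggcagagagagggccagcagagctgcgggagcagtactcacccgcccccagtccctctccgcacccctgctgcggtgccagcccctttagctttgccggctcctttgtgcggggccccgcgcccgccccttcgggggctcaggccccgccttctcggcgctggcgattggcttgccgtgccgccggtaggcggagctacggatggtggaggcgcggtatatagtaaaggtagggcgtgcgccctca
Dct: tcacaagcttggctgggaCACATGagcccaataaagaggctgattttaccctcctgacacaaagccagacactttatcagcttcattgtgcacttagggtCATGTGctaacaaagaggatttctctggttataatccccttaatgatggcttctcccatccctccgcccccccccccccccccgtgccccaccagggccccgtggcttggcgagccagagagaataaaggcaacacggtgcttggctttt
Tyr: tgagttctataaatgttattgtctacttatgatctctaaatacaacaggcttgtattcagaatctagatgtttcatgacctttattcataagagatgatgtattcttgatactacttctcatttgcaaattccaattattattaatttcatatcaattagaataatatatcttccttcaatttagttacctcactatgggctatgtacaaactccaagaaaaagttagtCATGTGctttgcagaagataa
The Dct promoter held 2 matches and the Tyr promoter 1, whereas those of Kcnj10 and Atp1b1 held 0. None of the 4 held CACGTG, the other form searched. Of 32851 promoters of this length, 12.3% held CATGTG and 6.02% held CACGTG on either strand, so these letters were not rare, and their absence from this window says only that they are not in it.

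Atp1b2, the other beta subunit among the members, lies at chr11:69599736-69605942 on the minus strand, with no overlapping gene. In marginal barcodes it was at 2242 CPM (2115 to 2375), from 1157 UMIs in 36 of 47, and 1154 of these UMIs came from the 39 barcodes that were not also endothelial. Intermediate barcodes were at 130 CPM (111 to 151) in the Tie2-GFP library. Of their 171 UMIs, 151 lay in the 6 barcodes with at least 2 summed UMIs of Kcne1 and Kcnq1, and 116 of these in 1 barcode. The other 82 were at 15.9 CPM, close to the 16.9 CPM (12.8 to 21.8) of the endothelial barcodes. In the NG2-DsRed library intermediate barcodes were at 22.7 CPM (8.31 to 49.3), endothelial ones at 141 CPM (112 to 174) and mural ones at 520 CPM (446 to 604), with a UMI in 71 of 97. Mural barcodes were thus 3.70-fold (2.83 to 4.87) above endothelial ones, and the 4 mural barcodes of the Tie2-GFP library held 9 Atp1b2 UMIs.

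**Figure D2:**
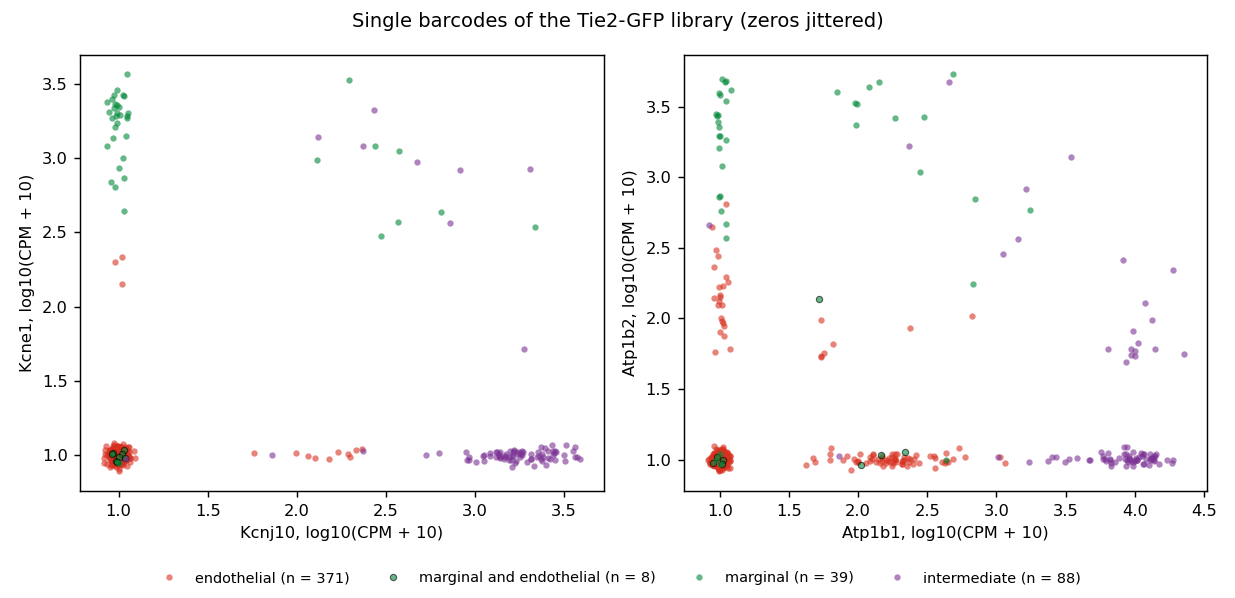
Single barcodes of the Tie2-GFP library by Kcnj10 and Kcne1 (left) and by Atp1b1 and Atp1b2 (right), each as log10 of CPM plus 10, with zeros spread slightly for display. Intermediate barcodes lie along the Kcnj10 and Atp1b1 axes and marginal barcodes along the Kcne1 and Atp1b2 axes, and the 8 barcodes that met both the marginal and the endothelial rule held 0 Kcne1 UMIs.

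Among the beta subunits the 2 strial classes were near opposites. Atp1b1 made up 86.8% (86.2 to 87.3) of the UMIs of Atp1b1, Atp1b2 and Atp1b3 in intermediate barcodes of the Tie2-GFP library and 80.9% (78.9 to 82.7) in those of the NG2-DsRed library. Atp1b2 made up 89.8% (88.0 to 91.4) in the 47 marginal barcodes and 94.2% (92.8 to 95.5) in the 39 that were not also endothelial. Atp1b3, which is no member, led in endothelial barcodes, with 87.2% (85.4 to 88.9) in the Tie2-GFP library and 59.9% (53.7 to 65.9) in the NG2-DsRed library, and made up 12.1% in intermediate barcodes of the former.

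Mural barcodes of the NG2-DsRed library were led by Atp1b2 as well, which gave 75.5% (69.5 to 81.0) of their beta-subunit UMIs, while Atp1b1 gave 15.7% (11.3 to 21.1) and Atp1b3 8.73% (5.42 to 13.2).

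**Figure D3:**
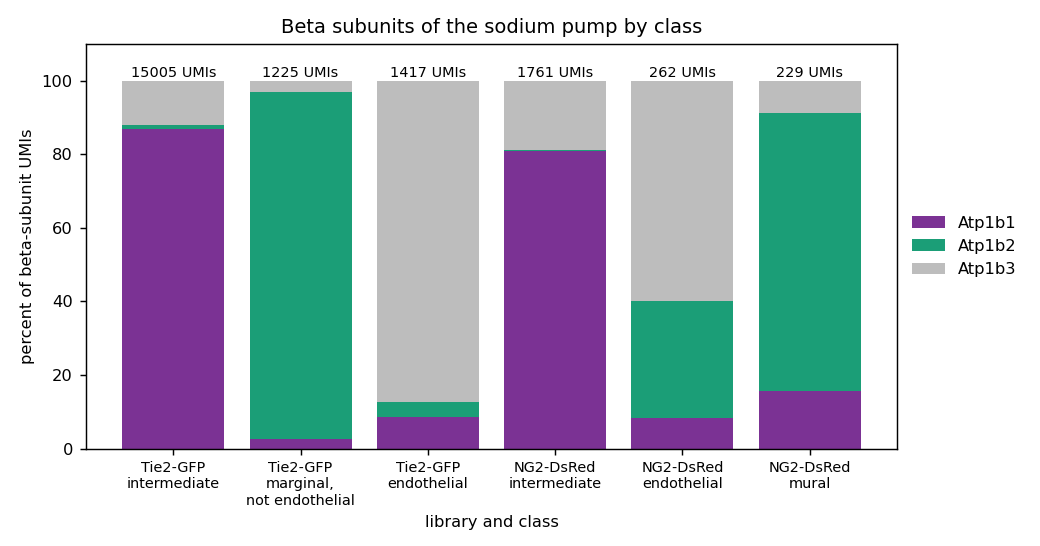
Share of the UMIs of Atp1b1, Atp1b2 and Atp1b3 (percent, stacked bars) in each class of at least 10 barcodes, with the summed UMIs above each bar. Atp1b1 fills 86.8% and 80.9% of the intermediate bars, Atp1b2 94.2% of the marginal and 75.5% of the mural bar, and Atp1b3 the larger part of both endothelial bars.

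The Atp1b2 UMIs of endothelial barcodes moved with mural genes. In the Tie2-GFP library 32 of 379 endothelial barcodes held UMIs of at least 2 of the 4 mural genes, a split chosen after seeing the data. Those 32 were at 84.7 CPM for Atp1b2, with a UMI in 19, and the other 347 were at 4.15 CPM (12 UMIs). In the NG2-DsRed library 44 of 60 endothelial barcodes held at least 2 mural genes and were at 172 CPM, against 1 UMI in the remaining 16. The Atp1b2 share of beta-subunit UMIs accordingly went from 4.09% to 1.00% in the Tie2-GFP library and from 31.7% to 2.13% in the NG2-DsRed library when these barcodes were left out. The part that mural RNA or joined cells had in these values was not tested.

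How far Kcne1, Kcnq1 and Kcnj10 appeared in vascular barcodes was measured as the level in endothelial or mural barcodes in percent of the level in the source class of the same library. In droplet data free RNA of lysed cells can add low counts of their genes to other barcodes. Whether endothelial or mural cells express these 3 genes themselves was not tested. The endothelial level of Kcne1 was 0.0439% (0.00903 to 0.129) of the marginal level in the Tie2-GFP library. For Kcnq1 it was 4.56% (3.36 to 6.12), and the intervals of these 2 genes of the same source did not overlap. The rule chose the marginal barcodes by the summed UMIs of these 2 genes, so both percentages and their contrast are descriptions. For Kcnj10, with intermediate barcodes as the source, the level was 0.190% (0.0981 to 0.333) in endothelial barcodes of the Tie2-GFP library, 0.710% (0.229 to 1.68) in those of the NG2-DsRed library and 0.252% (0.00636 to 1.42) in the mural ones. Without barcodes that met a second rule, the Kcnj10 value in endothelial barcodes of the NG2-DsRed library was 0.464%.

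Other intermediate markers gave a scale for these values. The 7 markers found in at least 25% of intermediate barcodes ranged from 0.0781 to 0.830% in endothelial barcodes of the Tie2-GFP library, with a median of 0.313%. They ranged from 0 to 1.47% with a median of 0.724% in endothelial barcodes of the NG2-DsRed library, and from 0 to 3.64% with a median of 0.998% in mural ones. The Kcnj10 values lay within each of these ranges and below each median. Dct, which chose the intermediate class, was not among the 7. Its level was 0.059% (0.045 to 0.077) in endothelial barcodes of the Tie2-GFP library, where the Kcnj10 interval lay wholly above that of Dct. In the NG2-DsRed library Dct was at 0.410% (0.310 to 0.532) in endothelial and 0.371% (0.248 to 0.533) in mural barcodes, with intervals that overlapped those of Kcnj10. Of the marginal markers, Esrrb (180 UMIs in the source) and Hmx2 (79) had 0 UMIs in the endothelial barcodes and Epcam had 1, whereas Wnk2, Shroom3 and Abcg1 stood at 2.59, 6.62 and 36.7%. Kcnq1 lay among the latter and Kcne1 among the former.

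**Figure D4:**
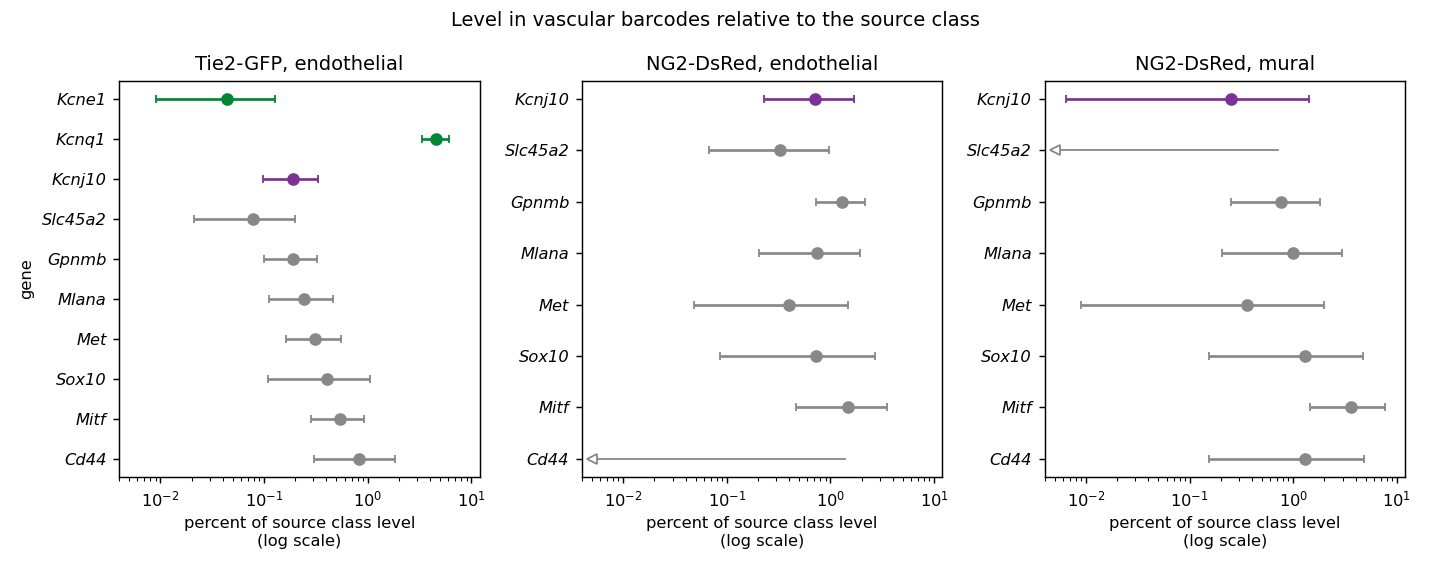
Level of each gene in endothelial or mural barcodes as a percent of its level in the source class (log axis), with 95% intervals, for members with marginal source (green), members with intermediate source (purple) and 7 intermediate markers (grey), and open triangles for 0 UMIs. Kcnj10 lies within the spread of the markers in all 3 panels, while Kcnq1 at 4.56% stands clear of Kcne1 at 0.0439%.

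Shares of barcodes gave the same order as levels. A Kcnq1 UMI was present in 54 of 379 endothelial barcodes of the Tie2-GFP library (14.2%, 10.9 to 18.2), with at most 4 UMIs each, a Kcnj10 UMI in 10 (2.64%, 1.27 to 4.80) and a Kcne1 UMI in 3 (0.792%, 0.164 to 2.30). No barcode held both Kcne1 and Kcnq1. After each barcode was thinned to 1216 UMIs, with 2 shallower barcodes left out, the shares were 2.65% for Kcnq1, 0.265% for Kcnj10 and 0 of 377 for Kcne1. A Kcnq1 UMI was found in 13.2% (5.48 to 25.3) of the 53 endothelial barcodes with a Dct UMI. It was found in 14.4% (10.8 to 18.7) of the 326 without one. Dct is a gene of intermediate barcodes, while the source class of Kcnq1 was the marginal one. This split therefore cannot show how much Kcnq1 came as RNA from marginal cells, which was not tested. In the NG2-DsRed library 8 of 60 endothelial barcodes held a Kcnq1 UMI (13.3%, 5.94 to 24.6), 5 a Kcnj10 UMI, of which 4 also held Dct, and 2 a Kcne1 UMI. Of these 4, 2 also met the intermediate rule, which asks for a Dct UMI, so their Dct was fixed by that rule.

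The same measure was taken between the 2 strial classes of the Tie2-GFP library. Kcne1 in intermediate barcodes stood at 2.94% (2.29 to 3.72) of its marginal level and Kcnq1 at 4.39% (2.74 to 6.77), and Kcnj10 in all 47 marginal barcodes at 2.85% (1.87 to 4.15) of its intermediate level. The Kcne1 and Kcnj10 values were above those in endothelial barcodes, whereas the Kcnq1 interval overlapped the endothelial one. The first 2 values rest on the 6 intermediate barcodes named above, and the Kcnj10 value was 1.43% with the threshold of 5 summed UMIs. Without Dct it was bound to be 0, since every marginal barcode with a Kcnj10 UMI also held Dct.

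The barcodes above the mitochondrial limit carried most of the strial UMIs, and the summed levels of several members differed across it. In the Tie2-GFP library the 8 intermediate barcodes at or below 5% were at 1238 CPM (1080 to 1414) for Kcnj10, 1697 CPM (1510 to 1900) for Slc12a2 and 8471 CPM (8048 to 8911) for Atp1b1. The 80 above it were at 1931, 3560 and 10118.6 CPM. Across single barcodes the order was not the same for all of these, since over the 88 barcodes the CPM of Slc12a2 rose with the mitochondrial share (rho 0.352) while that of Atp1b1 fell with it (rho -0.49). In the NG2-DsRed library the 9 barcodes at or below the limit were also lower, at 756 CPM (606 to 933) for Kcnj10 and 3816 CPM (3467 to 4190) for Atp1b1, against 1389 and 6576 CPM in the 17 above it. All of these levels stayed far above those of endothelial barcodes. Of the 39 marginal barcodes that were not also endothelial, 1 lay at or below the limit, and it held 45 Kcne1, 98 Slc12a2, 60 Atp1b2, 0 Atp1b1 and 0 Kcnj10 UMIs.

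Intermediate barcodes of the 2 libraries can be set side by side only as values, since line, batch and software version cannot be told apart. The Tie2-GFP library was 1.65-fold (1.46 to 1.87) above the NG2-DsRed library for Kcnj10, 1.84-fold (1.74 to 1.95) for Atp1b1 and 3.35-fold (2.95 to 3.81) for Slc12a2. It was 5.74-fold (2.58 to 15.9) above it for Atp1b2 and 4.83-fold (0.788 to 198.6) for Kcnq1, from few UMIs in the NG2-DsRed library, while Kcne1 had 77 UMIs in the former library and 0 in the latter. For these 3 genes most UMIs of the Tie2-GFP library lay in the 6 barcodes named above. These ratios of 1 class between libraries used all 26 intermediate barcodes of the NG2-DsRed library, including the 2 that were also endothelial. Without those 2, its Atp1b2 level was 8.15 in place of 22.7 CPM. Its Kcnq1 level was then 0 in place of 3.78 CPM, so the ratios of these 2 genes rest largely on those barcodes. In endothelial barcodes the ratios were 1.02 (0.532 to 2.13) for Kcnq1, 1.07 (0.667 to 1.82) for Slc12a2 and 0.961 (0.607 to 1.59) for Atp1b1, all with intervals that held 1. Both Kcnq1 levels fell without barcodes of a second class, as the marginal rule makes them do. For Atp1b2 the ratio was 0.120 (0.0843 to 0.170).

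A list of 29 further genes of the pathway (pump regulators, cotransporters, ion channels, kinases of the WNK pathway, connexins and Esrrb) was compared between classes. A gene was counted as higher or lower at a difference of at least 4-fold, with 0.5 UMIs added to each sum, among genes with at least 50 UMIs over both classes. A gene that is high in only 1 class can pass this filter through that class alone.

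In intermediate against endothelial barcodes of the Tie2-GFP library, 16 of the 29 had enough UMIs, 6 were higher and 2 lower, where 7.34% of all 8391 genes tested were higher and 15.5% lower. The median log2 difference of the list was 1.16 against -0.22 over all genes. Those higher included the pump regulator Fxyd1 (433 against 9.90 CPM), the inward rectifier Kcnj13 (125 against 1.46 CPM), the kinase Wnk4, and the connexins Gjb2 (508 against 1.46 CPM) and Gjb6 (1125 against 2.33 CPM), which join strial cells by gap junctions. The connexin Gja1 and the pump regulator Fxyd5 were lower, at 1.52 CPM each against 329 and 578 CPM.

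In marginal against endothelial barcodes 15 had enough UMIs, 7 were higher and 3 lower, against 6.10% and 21.4% of all 7590 genes, and the median log2 difference was 0.45 against -0.43. Those higher included the potassium channel Kcnk1 (178 against 0.582 CPM), the potassium-chloride cotransporter Slc12a7, the kinases Wnk2 and Stk39, the latter of which activates NKCC1 (361 against 26.5 CPM), and Esrrb. Fxyd5 and Gja1 were among those lower.

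In marginal against intermediate barcodes 15 had enough UMIs, 6 were higher and 5 lower, against 4.14% and 8.78% of all 4546 genes, with a median log2 difference of -0.48 against -0.14. Kcnk1, Slc12a7, Wnk2, Stk39 and Esrrb were among the higher ones, and lower were Atp1b3, Fxyd1, Kcnj13, Gjb2 and Gjb6. Gjb6 was at 7.74 CPM in marginal and at 1125 CPM in intermediate barcodes.

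In intermediate against mural barcodes of the NG2-DsRed library 7 had enough UMIs, 4 were higher, Atp1b3, Gjb2 and Gjb6 among them, and 1 was lower, against 8.96% and 15.4% of all 2143 genes. The median log2 difference was 2.98 against -0.13. Gjb6 had 356 UMIs in intermediate and 30 in mural barcodes, and Gjb2 had 201 and 34.

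The genes most like each member were found by Pearson's r of log2(CPM + 10) over 6 profiles, the 3 classes of at least 10 barcodes in each library, among 7547 genes with at least 100 UMIs. These profiles share libraries and barcodes, so r is a description. Kcne1 was most like Gpx3 (r = 0.999), Etnppl and Iqgap2, and Kcnq1 most like Pank1 (0.983), Aftph and Mrpl38. The marginal peak of Kcne1 and Kcnq1 follows in part from the rule. Pearson's r also compares the shape of profiles and not the size of their differences. Pank1 ranged only from 4.46 to 5.26 in log2(CPM + 10). Kcnj10 was most like Myo5a (0.997), a melanosome motor, Oxnad1 and Tyro3. Atp1b1 was most like Hhatl (0.999), Osbpl6 and Dusp19, Slc12a2 most like Psap (0.996), Grina and Slc38a1, and Atp1b2 most like Tesc (0.991), Heatr5b and Gde1.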

How the data were processed

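Single cells of the SV were captured with 10x Chromium 3′ chemistry, in 1 library of 10 Tie2-GFP mice and 1 of 10 NG2-DsRed mice. The matrices that the authors deposited hold UMI counts, 1 value per gene and barcode, not normalized. Per the file headers the counting software was version 7.0.0 for the Tie2-GFP and 3.0.0 for the NG2-DsRed library, and the submitters' processing notes name bcl2fastq 2.20.0.422 and mm10. Intron and strand settings are not given in the sources used here. Median depth per barcode was 6956 UMIs (Tie2-GFP) and 4322 UMIs (NG2-DsRed), which limits the lowest level a class can show.

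Barcodes were classed by UMIs of the stated genes, and UMIs were summed per class. CPM have exact Poisson, shares Clopper-Pearson and ratios exact conditional binomial 95% intervals, and for a count of 0 the level that 3 counts would give is printed as its limit. Shares were also taken after thinning to 1216 (Tie2-GFP) or 1467 UMIs (NG2-DsRed), the 10th percentile of each library. With 1 library per line no test was run. The members, classes and gene lists were chosen with earlier results of these data known. Some genes of the pathway list are counted but not reported here. The genes named are the members, the pathway list, the class markers and the 3 most similar genes of each member. Gene positions are those of GENCODE M21 and promoters those of RefSeq. Of the 6 members, 2 had an entry in the promoter table used here. Ratio intervals were tested on simulated data. Alternatives were the study's limits, other marginal rules, barcodes in 1 class alone, equal weights of barcodes, genes listed in both matrices, removal of barcodes with high doublet scores (scanpy 1.11.5, 3 barcodes of the Tie2-GFP and 0 of the NG2-DsRed library), other fold and UMI limits, and splits chosen after seeing the data. Python 3.11.15, numpy 2.4.6, scipy 1.17.1, pandas 2.3.3 and matplotlib 3.10.9 were used. Columns of other samples numbered 0.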

Additional observations from a re-analysis of the deposited data

Results flagged for a closer look

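The ratio of intermediate to endothelial barcodes for Atp1b2 pointed in opposite directions in the 2 libraries. It was 7.69 in the Tie2-GFP library and 0.0579 in the NG2-DsRed library, and the difference between these ratios was not tested. The 6 intermediate barcodes of the Tie2-GFP library with at least 2 summed Kcne1 and Kcnq1 UMIs carried 151 of the 171 intermediate Atp1b2 UMIs, and 116 of these lay in 1 barcode. The endothelial barcodes of the NG2-DsRed library with at least 2 mural genes carried 82 of 83.

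Members were also counted in barcodes that met none of the 4 rules, above the limit that a count of 0 allows. These were 123 barcodes of the Tie2-GFP library, with a median of 1259 UMIs and a median mitochondrial share of 84.8%, and 20 of the NG2-DsRed library. In the former, Kcne1 was at 35.5 CPM, Kcnj10 at 103 CPM, Slc12a2 at 798 CPM, Atp1b1 at 454 CPM and Atp1b2 at 241 CPM. In the latter, Kcnj10 was at 480.0 CPM, with 22 of its 31 UMIs in 1 barcode, Slc12a2 at 139 CPM, Atp1b1 at 728 CPM and Atp1b2 at 61.9 CPM.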

How the results depend on the processing

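Values stayed within the 95% interval under some alternatives and moved under others. Of 180 recomputed levels 123 stayed within the interval of the reported value. Of 39 levels and percentages between strial classes, all 39 stayed when totals used only genes listed in both matrices. Under the study's limits 18 of the 39 moved and 21 stayed. In intermediate barcodes of the Tie2-GFP library Kcnj10 then went from 1838 to 1119 CPM and Slc12a2 from 3310 to 1782 CPM. The Kcne1 and Kcnj10 percentages in endothelial and mural barcodes stayed within their intervals under every alternative that gave a value. Kcnq1 in endothelial barcodes went from 4.56% of the marginal level to 6.48% under the study's limits. It was 3.35% without barcodes of 2 classes and 3.05% with marginal barcodes free of Dct. Under the study's limits only 1 marginal barcode was left as the source of this percentage and of the Kcne1 one. The value without barcodes of 2 classes was bound to fall, since the marginal rule chose endothelial barcodes by their Kcnq1 UMIs. The Atp1b2 share in marginal barcodes was 50.4% under the study's limits, over 9 barcodes of which 8 were also endothelial, 94.2% without barcodes of 2 classes, 95.9% from 5 summed UMIs and 87.4% without Dct, and the Atp1b1 share in intermediate barcodes of the Tie2-GFP library was 87.8% under the limits and 87.8% without the 6 barcodes with at least 2 summed Kcne1 and Kcnq1 UMIs. Leaving out endothelial barcodes with mural genes, chosen after seeing the data, took the endothelial Atp1b2 share to 1.00% and 2.13%. In the pathway list the limits left 2 genes higher in marginal than endothelial and 0 higher in marginal than intermediate barcodes. These counts came from 1 marginal barcode. A 2-fold limit gave 4 lower in intermediate and 6 lower in marginal than endothelial barcodes. A minimum of 20 UMIs gave 3 lower in intermediate than mural barcodes. The share over all genes was computed for the reported setting alone. The list counts under these alternatives therefore show only how the list moved. Thinned shares fell outside the interval of the full-depth share for 6 of 9 values, by construction with fewer UMIs. No marginal barcode of the NG2-DsRed library was left under the limits, so no level was computed there. No paired analysis was possible because each line was 1 library with no replicate. Depth limits the mural and NG2-DsRed classes most, where 3 counts in the mural barcodes correspond to 9.03 CPM.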
